A study of Mus musculus with 12 samples.

Results

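Tight junctions seal the space between neighbouring epithelial cells, and 9 genes that build them were followed across the gut epithelial transcriptomes of wild-type (WT) and Chd8L+/- mice. They were chosen by name: the claudins Cldn2, Cldn3, Cldn4, Cldn7, Cldn15 and Cldn23, occludin (Ocln), the junctional adhesion molecule JAM-A (F11r) and the scaffold ZO-1 (Tjp1). All 9 have a row among the 14244 gene rows of the deposited table, and all 9 passed the filter on low values (a mean of at least 10 over the libraries), as did 12808 genes in all. The libraries came from gut epithelial cells of C57BL/6 male littermates, 8 weeks old, with 5 WT and 7 Chd8L+/- mice and 1 library per mouse. Chd8L+/- mice carry, throughout the body and not in the epithelium alone, 1 allele of the chromatin remodeller Chd8 in which exons 11 to 13 of the large isoform are deleted. The labels name no treatment, and they give the gut without its segment. Values are normalized counts, that is, reads counted on a gene divided by a size factor of the library.

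Claudins span the membrane and set what passes between cells. Claudin-2 and claudin-15 form pores for small cations and water and, in the small intestine, allow sodium to return to the lumen, where nutrient uptake needs it. Claudin-3 and claudin-4 are counted among the sealing claudins, claudin-7 lies largely along the lateral membrane and helps to hold the epithelium together, and claudin-23 is less studied. Occludin and JAM-A are membrane proteins of the same junction, and ZO-1 ties claudins and JAM-A to the actin cytoskeleton. In the mouse small intestine claudin-2 is known mainly from the crypts.

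The promoters of both pore-forming claudins, whose mean levels lay in opposite directions in the Chd8L+/- libraries, and of Cldn4, the barrier claudin that varied most between libraries, are shown for comparison. Each window runs from 250 bases before to 50 bases after the annotated start in RefSeq on build GRCm38.p6, 5′ to 3′ on the strand of the gene. Capitals mark matches, on either strand, to a TATA box (TATAAA), a GC box (GGGCGG, or CCGCCC on the other strand) or an E-box (CACCTG, or CAGGTG on the other strand). The windows are chrX:139800558-139800857 on the plus strand for Cldn2, chr5:136967619-136967918 on the plus strand for Cldn15 and chr5:134946885-134947184 on the minus strand for Cldn4.
Cldn2: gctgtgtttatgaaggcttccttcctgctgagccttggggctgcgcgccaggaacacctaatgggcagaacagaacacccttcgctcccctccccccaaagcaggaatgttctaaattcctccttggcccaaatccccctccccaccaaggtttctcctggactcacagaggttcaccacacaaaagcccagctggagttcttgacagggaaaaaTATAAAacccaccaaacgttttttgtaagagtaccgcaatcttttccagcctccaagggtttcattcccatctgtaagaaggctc
Cldn15: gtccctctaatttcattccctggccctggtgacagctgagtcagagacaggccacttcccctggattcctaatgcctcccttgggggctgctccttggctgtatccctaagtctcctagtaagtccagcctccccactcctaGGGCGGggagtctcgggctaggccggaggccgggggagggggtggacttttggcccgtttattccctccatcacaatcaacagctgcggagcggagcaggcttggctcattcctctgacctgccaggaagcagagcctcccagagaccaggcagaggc
Cldn4: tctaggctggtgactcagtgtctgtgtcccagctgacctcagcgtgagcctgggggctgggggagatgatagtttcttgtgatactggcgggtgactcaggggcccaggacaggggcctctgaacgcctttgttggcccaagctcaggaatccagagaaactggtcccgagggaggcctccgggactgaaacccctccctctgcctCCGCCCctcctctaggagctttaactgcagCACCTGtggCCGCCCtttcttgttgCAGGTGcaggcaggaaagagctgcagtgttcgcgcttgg

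Windows were found for 8 of the 9 genes, with 2 starts each for Cldn7 and Ocln. The windows of Cldn15 and Tjp1 lie inside the gene spans given below. The span of Cldn15 begins at chr5:136966616, and that of Tjp1, on the minus strand, begins at chr7:65527781. Those upstream starts were not searched. Cldn2 alone among the 10 windows held the TATA box, 35 bases before its start, a motif present in 13.6% of all 32851 mouse windows of the same length. It held neither a GC box nor an E-box, and the first start of Cldn7 matched none of the motifs searched. The Cldn15 window held a single GC box, 108 bases before the start, a motif found in 35.7% of all windows. In the Cldn4 window stood 2 GC boxes and 2 E-boxes, the latter being present in 20.2% of all windows. GC box and E-box also occurred together for Cldn3, F11r, the second start of Cldn7 and both starts of Ocln, whereas Tjp1 had 2 GC boxes and no E-box. No window matched the 3 other motifs searched on both strands, a TCF/LEF element (CTTTGAT, in 3.73% of all windows), a GATA element (AGATAA, 11.2%) and a CDX element (CAATAAA, 4.60%). GC content was 51.3% for Cldn2 and 61.0% for Cldn15 and Cldn4, against a median of 52.7% over all windows.

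The libraries held 15691662 to 20761315 reads on genes, and the fewest reads behind any value of these 9 genes were 316, for Cldn2 in WT replicate 3. WT replicate 2 stood apart from its group. On the first principal component of all genes tested, which held 39.7% of the variance, it lay at 41.0, among the Chd8L+/- libraries (0.26 to 42.7), and the other WT libraries lay at -67.5 to -26.2. For 8 of the 9 genes its log2 value was nearer to the Chd8L+/- mean than to the mean of the other WT libraries, Tjp1 being the exception, so the comparison of each of the 9 genes is given with all 12 libraries and without this one. This library was singled out by its values, so leaving it out favours a separation of the genotypes. The p-values and gaps between groups without it are therefore given as description only. Chd8 itself, counted over the whole gene so that the deleted exons could not be separated and the labels could not be checked by it, was at 953 ± 85.5 in WT and 1297 ± 123 in Chd8L+/- libraries (mean ± SD). Its log2 fold change of 0.44 did not pass in limma or edgeR with 12 libraries (adjusted p = 0.121 and 0.107) and passed in DESeq2 (adjusted p = 0.00378), and without WT replicate 2 it was 0.48 (limma, adjusted p = 0.00676).

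With all 12 libraries, 0 of the 9 genes passed an adjusted p of 0.05 in limma, as did 0.0234% of all genes tested, and for 2 of the 9, Cldn2 and Cldn15, the unadjusted p was 0.05 or less, against 24.3% of the genes tested. By edgeR on the recovered reads the count was also 0 of 9, against 0.039% of all genes, with Cldn2, Cldn15, F11r and Tjp1 at an unadjusted p of 0.05 or less (22.4% of all genes), and by DESeq2 it was 1, Cldn15, against 6.44% of all genes. Without WT replicate 2, limma placed 3 of the 9 past the threshold: Cldn2 was higher and Cldn15 and F11r were lower in Chd8L+/- mice. Of all genes, 27.6% passed in that comparison, 14.0% higher and 13.6% lower, so 3 of 9 was close to the background. The values of the 2 genotypes overlapped for all 9 genes with 12 libraries (0.515% of all genes did not overlap), and without WT replicate 2 they did not overlap for the same 3 genes, against 14.4% of all genes.

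**Figure D1:**
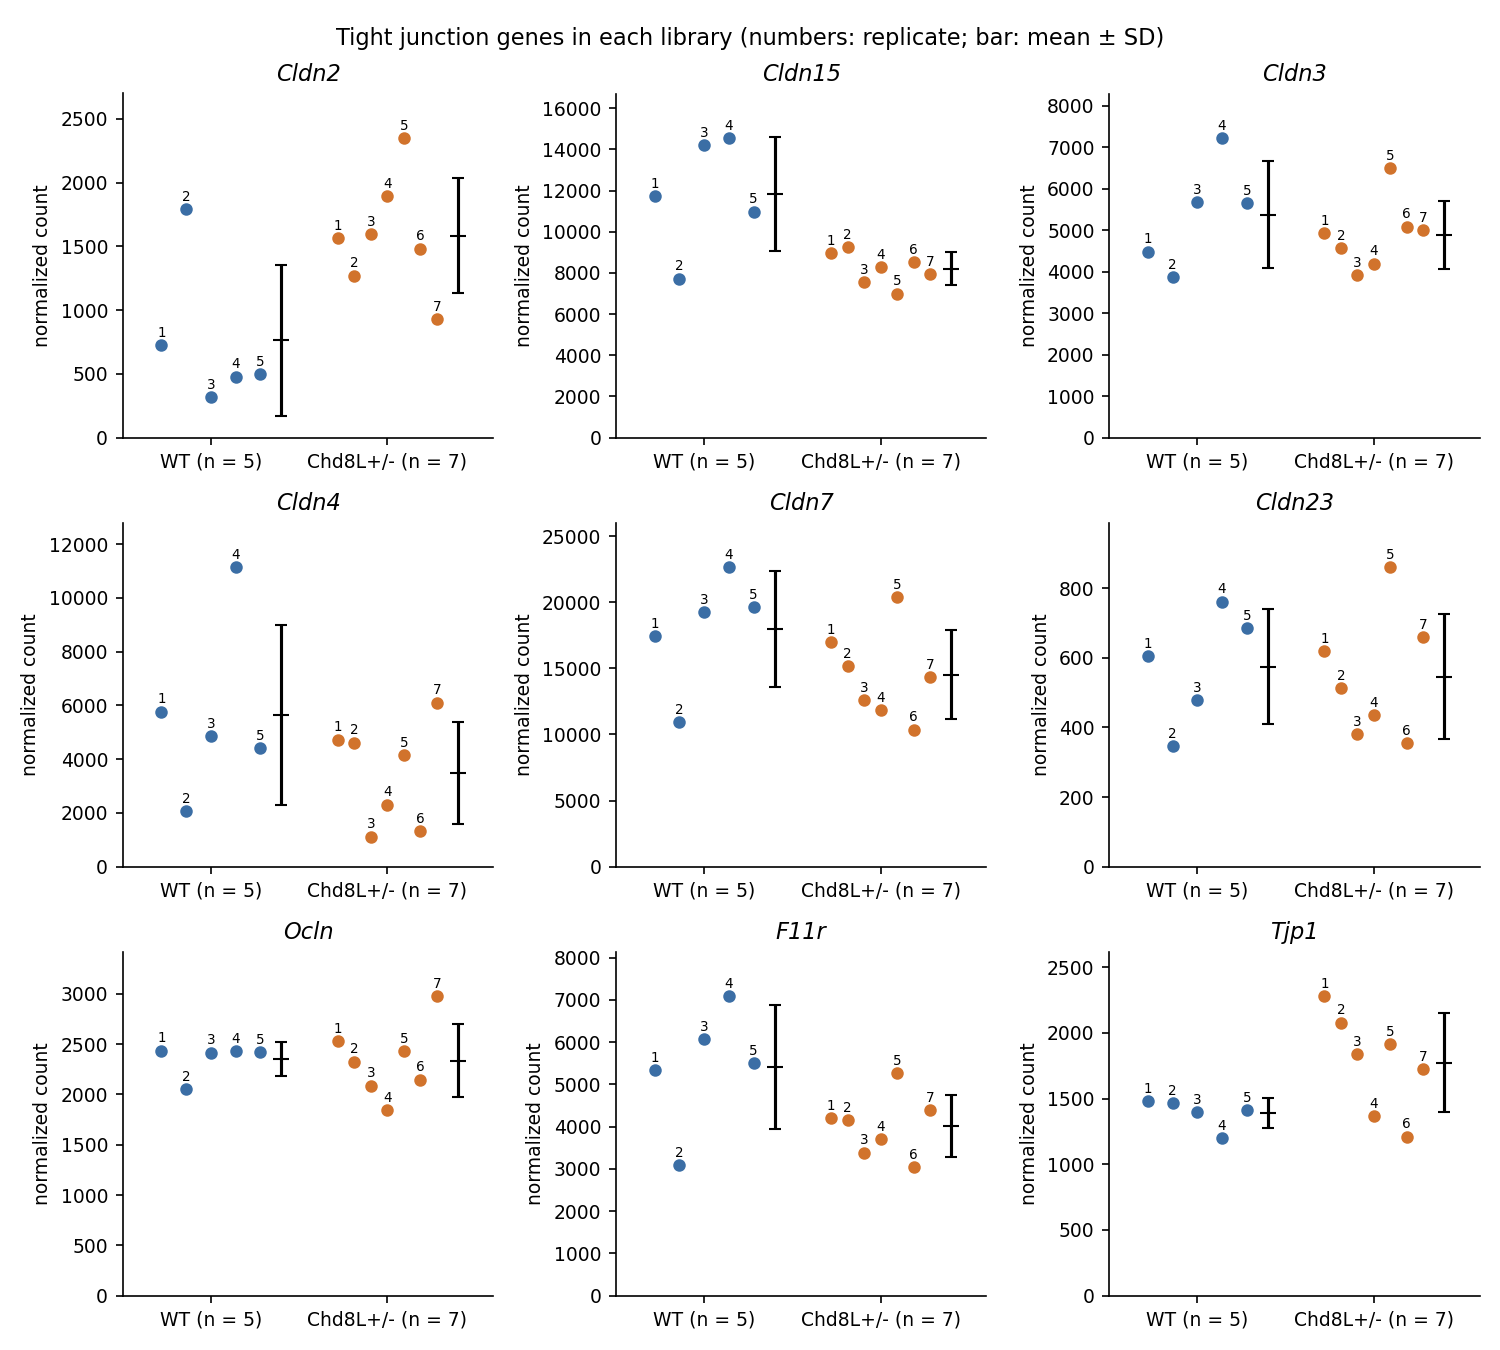
Normalized count (linear axis from 0) of each of the 9 genes in every library, with WT in blue, Chd8L+/- in orange, the replicate number above each point and black bars for the mean ± SD. WT replicate 2 lies among the Chd8L+/- points for Cldn2 (1790) and Cldn15 (7727), and the other WT points lie below every Chd8L+/- point for Cldn2 and above every one for Cldn15.

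Cldn2, on chromosome X (chrX:139800828-139811386, GRCm38), had the largest log2 fold change of the 9. In WT replicates 1 to 5 its normalized counts were 726, 1790, 319, 478 and 500. In the Chd8L+/- libraries they ran from 927 in replicate 7 through a median of 1564 to 2347 in replicate 5. All 7 Chd8L+/- libraries lay above the WT median and above WT replicates 1, 3, 4 and 5, and WT replicate 2 lay above 5 of them. The mean was 763 ± 592 in WT (n = 5) and 1584 ± 451 in Chd8L+/- libraries (n = 7). The log2 fold change was 1.28 (SE 0.34, 95% interval 0.54 to 2.02), a 2.42-fold higher value, which differed in the two-sided exact permutation test (p = 0.0126, where 0.00126 is the smallest p that 12 libraries allow) but not after adjustment over all genes (limma, adjusted p = 0.121). Leaving WT replicate 2 out, it was 1.65 (SE 0.24), or 3.15-fold, with an adjusted p of 0.00265 in limma and an exact p of 0.00303, the smallest that 11 libraries allow. When the first letter of the library names was added to the fit as a block, all 12 libraries gave 1.55 and an adjusted p of 0.0434 in limma, where 3.52% of all genes passed. The labels give this letter no meaning, and Chd8L+/- replicate 7, alone under its letter, does not inform that estimate. With the replicate number as the block the value was 1.43 and the adjusted p 0.224 in limma. Chd8L+/- replicates 6 and 7, each alone under its number, do not inform that value, and the labels name no pairing by this number.

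Cldn15, the other pore-forming claudin (chr5:136966616-136975858), went the other way. Its normalized counts in WT replicates 1 to 5 were 11718, 7727, 14203, 14533 and 10983. In Chd8L+/- libraries they lay between 6987 in replicate 5 and 9238 in replicate 2, with a median of 8275. Every Chd8L+/- library was below WT replicates 1, 3, 4 and 5, while WT replicate 2 was lower than 5 of the 7. The Chd8L+/- libraries were close together, with a coefficient of variation of 9.60% against 23.3% in WT. The mean was 11833 ± 2762 in WT and 8211 ± 788 in Chd8L+/- libraries. Its log2 fold change was -0.50 (SE 0.16, 95% interval -0.85 to -0.15), or 1.41-fold lower. It differed in the exact permutation test (p = 0.00884), and the adjusted p was 0.125 in limma and 0.0250 in DESeq2. With WT replicate 2 left out the log2 fold change was -0.64 (SE 0.13), with an adjusted p of 0.00590 in limma and an exact p of 0.00303.

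The barrier claudins Cldn3 and Cldn4 are neighbours on chromosome 5, with 39279 bases between Cldn4 (chr5:134945119-134946934, minus strand) and Cldn3 (chr5:134986214-134987472, plus strand), and each is a gene of 1 exon. Exons of Wbscr25 overlap Cldn3 on the opposite strand, and since the use of strand in counting is not given in the sources used here, their reads cannot be told apart. Neither gene differed between the genotypes by any test of the 12 libraries.

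Cldn3 had normalized counts of 4485, 3867, 5674, 7216 and 5658 in WT replicates 1 to 5. Its Chd8L+/- values ran from 3922 in replicate 3 through 4934 to 6491 in replicate 5, and all 7 lay inside the WT range. The log2 fold change was -0.12 (95% interval -0.48 to 0.23; limma, adjusted p = 0.673; exact p = 0.480), and it turned to 0.12 under quantile normalization and to 0.04 once length and GC content were corrected. Without WT replicate 2 it was -0.23 (limma, adjusted p = 0.289; exact p = 0.173).

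Cldn4 varied more from mouse to mouse than any other gene of the 9 apart from Cldn2 in WT. Its normalized counts were 5775, 2064, 4849, 11139 and 4415 in WT replicates 1 to 5. Among the Chd8L+/- libraries they spanned 1116 in replicate 3 to 6099 in replicate 7, with a median of 4144. The Chd8L+/- libraries formed a low group of replicates 3, 4 and 6, at or below 2308, and a group of the other 4 from 4144 upwards, and WT replicate 2 lay with the low group. The coefficient of variation was 59.5% in WT and 54.8% in Chd8L+/- libraries. The log2 fold change was -0.74 with a 95% interval of -1.75 to 0.26 (limma, adjusted p = 0.335; exact p = 0.207), and it was -1.05 without WT replicate 2 (limma, adjusted p = 0.101; exact p = 0.0939). An interval of this width holds both no change and a fall larger than that of Cldn15.

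Cldn7 (chr11:69964779-69967885) was the most abundant of the 9 per kilobase of exon. WT replicates 1 to 5 held 17422, 10944, 19271, 22643 and 19636 normalized counts of it. Chd8L+/- libraries held 10375 in replicate 6, 14354 at the median and 20413 in replicate 5, and 6 of the 7 lay below the WT median. The log2 fold change was -0.30 (SE 0.22; limma, adjusted p = 0.397; exact p = 0.189). It was -0.47 without WT replicate 2, and 6 of 7 Chd8L+/- libraries lay below all other WT libraries (exact p = 0.0364), but the adjusted p was 0.0805 in limma. In DESeq2 without that library its log2 fold change of -0.44 passed with an adjusted p of 0.0495.

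Cldn23 (chr8:35824712-35826559) had low values, and its groups overlapped throughout, from 346 to 762 in WT and from 354 to 860 in Chd8L+/- libraries. Its log2 fold change was -0.09 (95% interval -0.60 to 0.43; limma, adjusted p = 0.851), and it reached 0.03 with length and GC content corrected. With WT replicate 2 left out the value was -0.26 (limma, adjusted p = 0.432; exact p = 0.339).

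**Figure D2:**
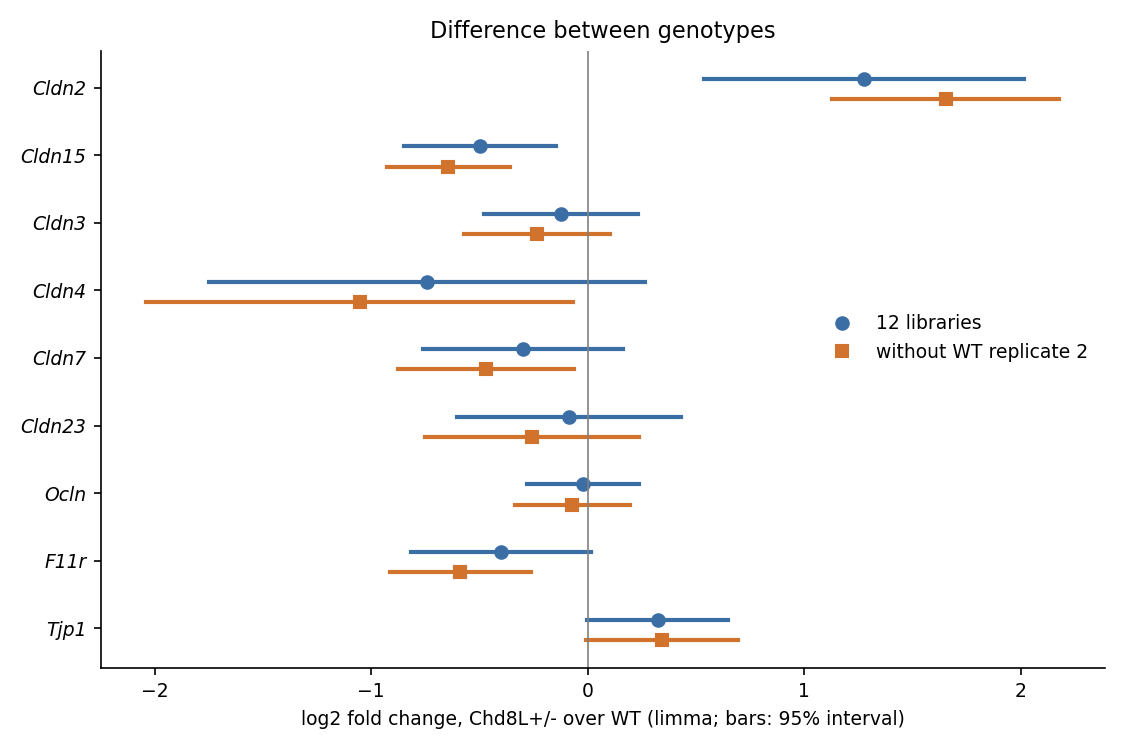
Log2 fold change of each gene, Chd8L+/- over WT, from limma on log2(normalized count + 1), with 95% intervals, for all 12 libraries (blue circles) and without WT replicate 2 (orange squares). With 12 libraries the intervals of Cldn2 and Cldn15 lie away from 0, on opposite sides, and without WT replicate 2 those of F11r, Cldn4 and Cldn7 do so as well.

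Among the membrane proteins that are not claudins, occludin was nearly level across 4 of the WT libraries. Its normalized counts in WT replicates 1, 3, 4 and 5 were 2433, 2414, 2428 and 2421, with 2050 in WT replicate 2. Chd8L+/- libraries ranged from 1841 in replicate 4 through 2325 to 2973 in replicate 7, on both sides of the WT values. The log2 fold change was -0.02 (95% interval -0.28 to 0.24; limma, adjusted p = 0.928; exact p = 0.861) and 0.11 under quantile normalization, so a change of either sign of up to 0.24 to 0.28 on the log2 scale lies within that interval. Setting WT replicate 2 aside gave -0.07 (limma, adjusted p = 0.703; exact p = 0.570).

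F11r (chr1:171437535-171464603) had normalized counts of 5341, 3094, 6067, 7083 and 5510 in WT replicates 1 to 5. The Chd8L+/- values were 3046 in replicate 6 at the lowest, 4154 at the median and 5272 in replicate 5 at the highest. All 7 lay below the WT median and below WT replicates 1, 3, 4 and 5, whereas WT replicate 2 lay below 6 of the 7. The log2 fold change was -0.40 (SE 0.19; limma, adjusted p = 0.220; exact p = 0.0808). Without this library it was -0.59 (SE 0.15), a 1.503-fold lower value, with an adjusted p of 0.0138 in limma and an exact p of 0.00606.

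Tjp1 (chr7:65296165-65527781), the scaffold, was the only gene besides Cldn2 with a higher mean in Chd8L+/- libraries. Its normalized counts in WT replicates 1 to 5 were 1481, 1465, 1398, 1198 and 1411, a narrow range that included WT replicate 2. In Chd8L+/- libraries they spread from 1209 in replicate 6 and 1368 in replicate 4 through a median of 1837 to 2277 in replicate 1, and 5 of the 7 lay above every WT library. The means were 1391 ± 113 and 1772 ± 378, and the log2 fold change was 0.32 (95% interval -0.00079 to 0.65; limma, adjusted p = 0.207; exact p = 0.0619). It was 0.34 without WT replicate 2 (limma, adjusted p = 0.132; exact p = 0.0909). Leaving out Chd8L+/- replicate 4 gave an exact p of 0.0390 and leaving out replicate 6 gave 0.0173, but the adjusted p was 0.0947 at the lowest over 25 alternative fits. The coefficient of variation was 21.3% in Chd8L+/- and 8.14% in WT libraries.

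A recurring set of libraries lay low. WT replicate 2 and Chd8L+/- replicates 3, 4 and 6 were the 4 lowest libraries for Cldn4, Cldn7, Cldn23, Ocln and F11r alike, for example at 346 to 435 for Cldn23 and 10375 to 12616 for Cldn7. These same 4 libraries also had the lowest summed level of the 7 general epithelial markers (Epcam, Cdh1, Krt8, Krt18, Krt19, Krt20 and Vil1), at 151487 to 176848 against 179909 to 274126 in the other libraries. The sum did not hold for each marker, since Krt19 had its highest WT value, 20839, in WT replicate 2. Between the genotypes 2 of the 7 were higher and 5 lower in Chd8L+/- libraries (4 and 3 under quantile normalization). All 7 epithelial markers were present at high levels throughout, and the part of the variation shared by these 4 libraries in the genotype differences was not tested.

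The order of levels between genes was compared per kilobase of exon. In WT libraries Cldn7 led with 9232 ± 2237 normalized counts per kilobase, followed by Cldn15 at 5571 ± 1300, Cldn3 at 4273 ± 1022, Cldn4 at 3110 ± 1850 and F11r at 2035 ± 551. Ocln at 556 ± 39.7, Cldn23 at 311 ± 89.7, Cldn2 at 229 ± 178 and Tjp1 at 178 ± 14.5 were lower. Among neighbours in this order, F11r and Ocln did not overlap over the WT libraries, nor did Ocln and Cldn23, while all other neighbours overlapped. In Chd8L+/- libraries Cldn3 at 3881 ± 659 and Cldn15 at 3866 ± 371 were level with each other, and Cldn2 at 476 ± 136 stood above Cldn23 at 295 ± 97.5.

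Within the 6 claudins, the per-kilobase level of Cldn2 remained a small part of the sum. It made up 0.397% to 1.004% in WT replicates 1, 3, 4 and 5, 3.79% in WT replicate 2 and 1.46% to 3.71% in Chd8L+/- libraries. Cldn15 made up 24.7% ± 2.27 in WT and 22.2% ± 4.20 in Chd8L+/- libraries, and Cldn2 and Cldn15 together 26.0% ± 2.93 and 24.9% ± 4.51. Cldn7 contributed 40.8% ± 2.48 and 41.4% ± 3.72, Cldn3 19.0% ± 1.92 and 21.9% ± 2.81, Cldn4 12.9% ± 4.57 and 10.2% ± 4.81. The summed share of both pore-forming claudins overlapped widely between the genotypes.

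**Figure D3:**
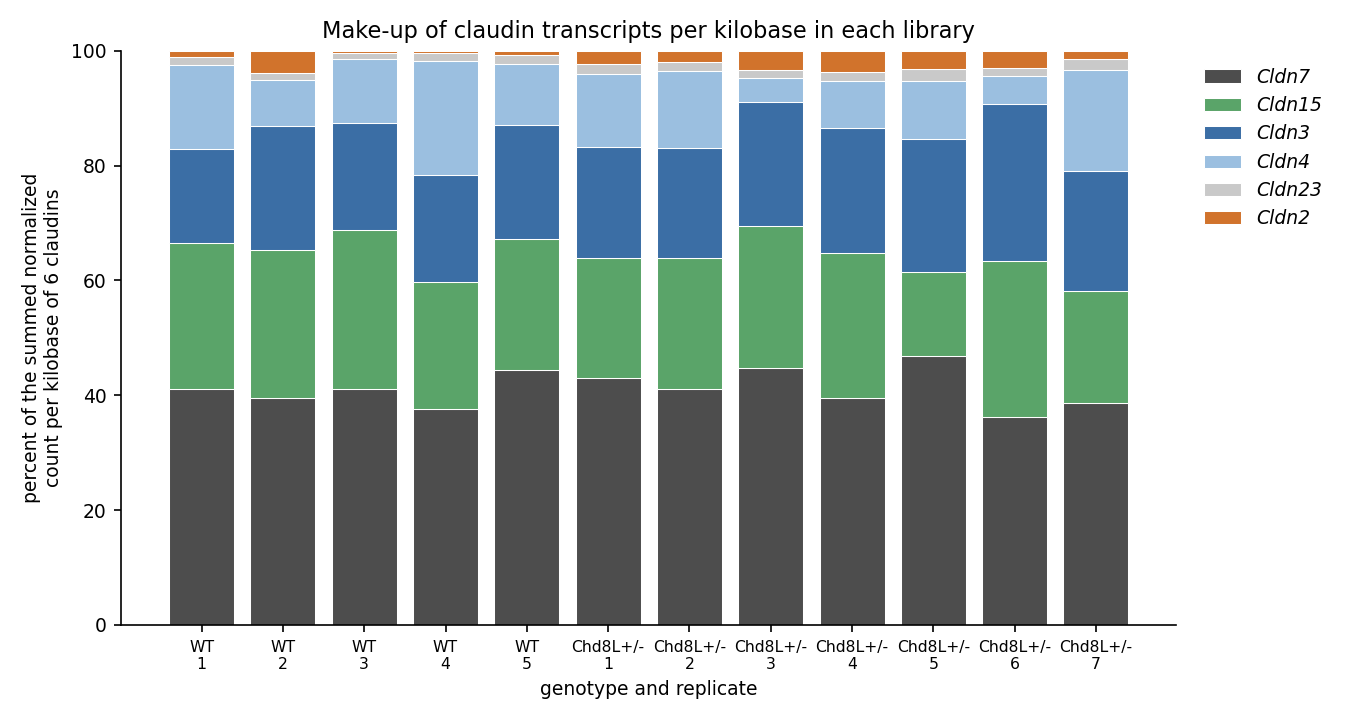
Stacked bars of the percent that each of 6 claudins took of their summed normalized count per kilobase in each library (axis from 0 to 100%). Cldn7 is the largest part in every bar, and the orange Cldn2 part is thinnest in WT replicates 1, 3, 4 and 5, where it is at most 1.004%.

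Set against Cldn3, Cldn4 and Cldn7 in the same library, Cldn2 had a higher mean ratio in Chd8L+/- mice in each case. The log2 ratio of Cldn2 to Cldn3 was -3.06 ± 1.23 in WT and -1.66 ± 0.42 in Chd8L+/- libraries, that to Cldn4 was -2.96 ± 1.66 and -0.94 ± 1.17, and that to Cldn7 was -4.79 ± 1.31 and -3.22 ± 0.46. All 7 Chd8L+/- libraries lay above WT replicates 1, 3, 4 and 5 in each of these ratios, and WT replicate 2 lay at -1.11, -0.21 and -2.61, among or above them. The log2 ratio of Cldn2 to Cldn15 was -4.19 ± 1.29 in WT and -2.42 ± 0.50 in Chd8L+/- libraries, with the same lack of overlap once WT replicate 2 (-2.11) was set aside. These ratios share Cldn2 and were not tested.

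Cldn15 showed no such separation from these 3 claudins. Its log2 ratio to Cldn3 was 1.13 ± 0.20 in WT and 0.76 ± 0.31 in Chd8L+/- libraries, with 5 of 7 below all WT libraries. The ratio to Cldn4 was 1.23 ± 0.58 and 1.48 ± 0.96, and that to Cldn7 was -0.60 ± 0.15 and -0.80 ± 0.39, and in both the groups overlapped.

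**Figure D4:**
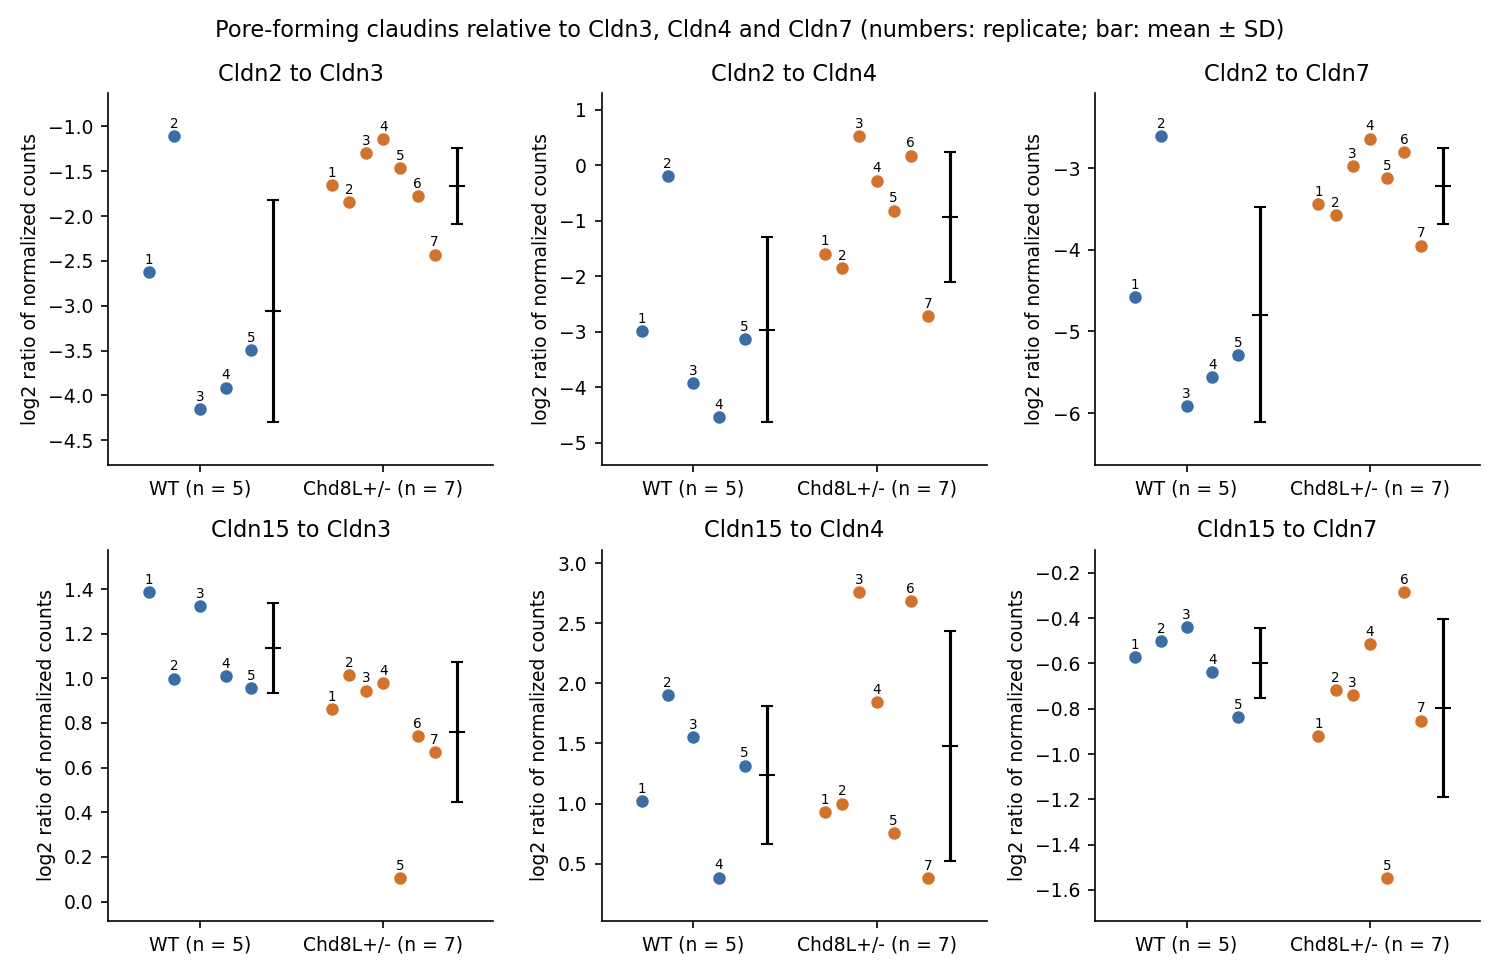
Log2 ratio of the normalized counts of Cldn2 (top row) and Cldn15 (bottom row) to Cldn3, Cldn4 and Cldn7 in each library, with replicate numbers and mean ± SD; the vertical axes differ between panels and do not start at 0. In the top row all 7 Chd8L+/- libraries lie above WT replicates 1, 3, 4 and 5, and in the bottom row the groups overlap.

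Markers of other positions and cell types moved alongside these differences. Of 10 crypt markers, among them the stem cell genes Lgr5 and Olfm4 and the cell division genes Mki67 and Top2a, 10 were higher in Chd8L+/- libraries (9 under quantile normalization), and their log2 fold changes had a median of 0.56 against 0.01 over all genes tested. Their summed level was 6160 to 12871 in WT replicates 1, 3, 4 and 5, 21313 in WT replicate 2 and 13731 to 24180 in Chd8L+/- libraries, an order of groups like that of Cldn2. Of 10 villus enterocyte markers 9 were lower (7 under quantile normalization), with sums of 733326 to 808298 in those 4 WT libraries, 361347 in WT replicate 2 and 295696 to 708365 in Chd8L+/- libraries, and of 6 villus tip markers 5 were lower (median -0.55). None of these crypt or villus markers was at 0 in any library. None passed the limma threshold with 12 libraries, with a lowest adjusted p of 0.121 for crypt (Mki67 and Top2a) and 0.128 for villus markers (Egfr). The crypt rise was larger for Mki67 (1.45) and Top2a (1.26) than for Lgr5 (0.38) and Olfm4 (0.47). Olfm4 was a mean of 5438 of the crypt sum of 11476 in WT, and its values overlapped (2982 to 9658 in WT, 4692 to 12150 in Chd8L+/- libraries). In bulk RNA, fewer cells of a type and less RNA per cell cannot be told apart.

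Marker transcripts of cells from outside the epithelium, and of its tuft, goblet, Paneth and enteroendocrine cells, also varied between the libraries. All 8 myeloid markers were higher in Chd8L+/- libraries (sum 1178 to 1503 in WT replicates 1, 3, 4 and 5, 3172 in WT replicate 2, 1793 to 4011 in Chd8L+/- libraries). So were 8 of 9 stromal, endothelial and muscle markers tested (sum of the 11 with a row 79.997 to 167, 517 and 125 to 2522). The endothelial markers tested did not share a clear rise, with Pecam1 at 0.14 and Vwf at -0.46 on the log2 scale. The stromal, endothelial and muscle sum was highest in Chd8L+/- replicates 5 (2522) and 4 (999), and replicate 6 (125) lay inside the WT range. Most of the myeloid sum was Lyz2, at a mean of 1345 of 1706 in WT and 1782 of 2425 in Chd8L+/- libraries. Its log2 fold change, 0.49, was that of the far more abundant Paneth cell marker Lyz1 (0.49), with means of 20406 and 26853. Both had their highest WT value in WT replicate 2, at 2606 and 40126. The part of Lyz1 in the Lyz2 values was not tested, so the myeloid sum cannot be read as myeloid cells alone. The lowest adjusted p of the 8 myeloid markers with 12 libraries was 0.121 in limma, for Itgam. Of 9 lymphocyte markers 8 were lower and their sums overlapped (4422 to 8244 in WT, 3136 to 8013 in Chd8L+/- libraries). All 8 tuft cell markers were lower (sum 10034 to 21788, 2293 and 1316 to 9191), with a lowest adjusted p of 0.121 in limma with 12 libraries. The part of these markers and of the crypt and villus markers in the claudin differences was not tested. Goblet cell markers were lower for 6 of 7 (3 of 7 with the letter block) and Paneth cell markers for 4 of 5, with overlapping sums in both, and 4 of 7 enteroendocrine markers were higher (3 under quantile normalization). Of the regional lists, 2 of 6 proximal, 1 of 6 distal small intestinal and 3 of 5 colonic markers were higher (2, 2 and 2 under quantile normalization), and the colonic sum ran from 551 to 22596 within the Chd8L+/- group. The only pancreatic acinar marker with a row, Cela1, was present at up to 257.

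Genes whose pattern over the 12 libraries was most like that of each member are given as a description, by Pearson r of log2 values over the 12 libraries, which also differ in depth and in the marker sums given above. For Cldn2 these were Pitpnm2 (0.97) and Colgalt1 (0.97), and for Cldn15 Atp6v1d, a subunit of the vacuolar proton pump (0.99), and Got1, the cytosolic aspartate aminotransferase (0.98). For Cldn7 they were Epcam, the epithelial adhesion molecule (0.98), and Trp53i13 (0.97), and for F11r Stap2 (0.98) and Mfsd6l (0.98). Cldn4 was matched by Pmepa1 (0.97) and Gprc5a (0.95), Cldn3 by Acp5 (0.94) and Msmo1 (0.91), Cldn23 by Mgat1 (0.95) and Btd (0.95), Tjp1 by the cohesin loader Nipbl (0.93) and Flvcr1 (0.93), and Ocln by the zinc transporter Slc30a4 (0.89) and the insulin receptor Insr (0.88). Different genes headed the likeness for each member, and none of the 18 passed the threshold with 12 libraries in limma, while Got1 and Atp6v1d passed in DESeq2 (adjusted p = 0.00589 and 0.0489).

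The rest of the junction was read from lists of 77 other genes, of which 62 have a row and 56 were tested. With 12 libraries 0 of the 56 passed the limma threshold, against 0.0234% of all genes tested. An unadjusted p of 0.05 or less was found for 10 of the 56, against 24.3% of all genes tested. Of the 56, 25 were higher and 31 lower, and their median log2 fold change was -0.03 against 0.01 over all genes. With WT replicate 2 left out, 5 were past the threshold and higher and 7 past it and lower, which at 12 of 56 compares with the 27.6% of all genes.

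Of 18 other claudins only 4 have a row and 2 were tested, Cldn12 at 534 ± 68.5 in WT and 603 ± 67.4 in Chd8L+/- libraries, and Cldn8, a sealing claudin of the distal gut, at 35.8 ± 32.3 and 47.0 ± 15.5. All 4 tricellular and MARVEL proteins were lower, from Marveld2 (tricellulin) at -0.11 to Ildr1 (angulin-2) at -0.56, none past the threshold. Of the junctional immunoglobulin-like proteins, Igsf5 (JAM4) was at -0.55 on the log2 scale with 12 libraries (adjusted p = 0.133 in limma and 0.0494 in DESeq2), and without WT replicate 2 it fell by 0.76 on the log2 scale (limma, adjusted p = 0.00422). Clmp, at 18.8 ± 8.38 and 24.7 ± 17.5, was the highest by log2 fold change of that list, 0.28, which turned to -0.01 without WT replicate 3.

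Among 9 scaffolds and adaptors 7 were higher and 2 lower (5 and 4 once length and GC content were corrected), with a median of 0.14. Ybx3 (ZONAB), a DNA-binding protein that associates with ZO-1, was at 0.53 with 12 libraries and rose by 0.73 without WT replicate 2 (limma, adjusted p = 0.0220). The scaffold Magi1 was at 0.39 with 12 libraries (limma, adjusted p = 0.121) and 0.42 without WT replicate 2 (adjusted p = 0.0215). Tjap1 was at -0.39 and fell by 0.53 on the log2 scale without WT replicate 2 (limma, adjusted p = 0.00791). The scaffold Tjp3 was at 0.14, next to 0.32 for Tjp1, and did not pass the threshold in either fit.

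The polarity complexes divided, with 5 of 11 higher and 6 lower (6 and 5 under quantile normalization). Crb3, the Crumbs protein of epithelia, had the lowest value at -0.56 with 12 libraries (adjusted p = 0.121 in limma and 0.0268 in DESeq2) and fell by 0.73 on the log2 scale without WT replicate 2 (limma, adjusted p = 0.00314). With 12 libraries the 2 atypical protein kinase C genes differed in sign, Prkci at 0.29 and Prkcz at -0.21 (limma, adjusted p = 0.260 and 0.494). Scrib was at 0.20 (limma, adjusted p = 0.192). Without WT replicate 2 they were at 0.44 for Prkci (limma, adjusted p = 0.0209), -0.39 for Prkcz (0.0495) and 0.24 for Scrib (0.0481). Pard6g, at 13.5 ± 6.96 and 20.3 ± 7.25 normalized counts, had the highest value of the list, 0.67, and did not pass.

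Of the actomyosin regulators, the GTPases Rhoa and Cdc42 were at -0.35 and -0.31 with 12 libraries, where Rhoa passed in DESeq2 (adjusted p = 0.0429), and fell without WT replicate 2, by 0.44 and 0.43 on the log2 scale (limma, adjusted p = 0.0123 and 0.0175). Myl9, a myosin light chain that smooth muscle also makes, was at 0 to 30.4 in WT and 6.37 to 419 in Chd8L+/- libraries. Its fitted log2 fold change of 3.01 without WT replicate 2 (limma, adjusted p = 0.0479) depends on the pseudocount, and the stromal and muscle markers given above moved with it.

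In adherens junctions and desmosomes most log2 fold changes were near 0, and the balance of signs turned under quantile normalization, to 8 of 10 and 7 of 8 higher. Of 10 adherens junction genes 3 were higher and 7 lower (median -0.07), between Cdh17 at -0.24, a value that was 0.06 under quantile normalization, and the scarce Nectin4 at 1.06 with 7.71 ± 6.92 and 13.7 ± 9.05 normalized counts. Of 8 desmosome genes 3 were higher and 5 lower (median -0.04), with Ppl at 0.39 and Evpl at -0.69. Evpl, a plakin, fell by 1.04 on the log2 scale without WT replicate 2 (limma, adjusted p = 0.0118).

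**Figure D5:**
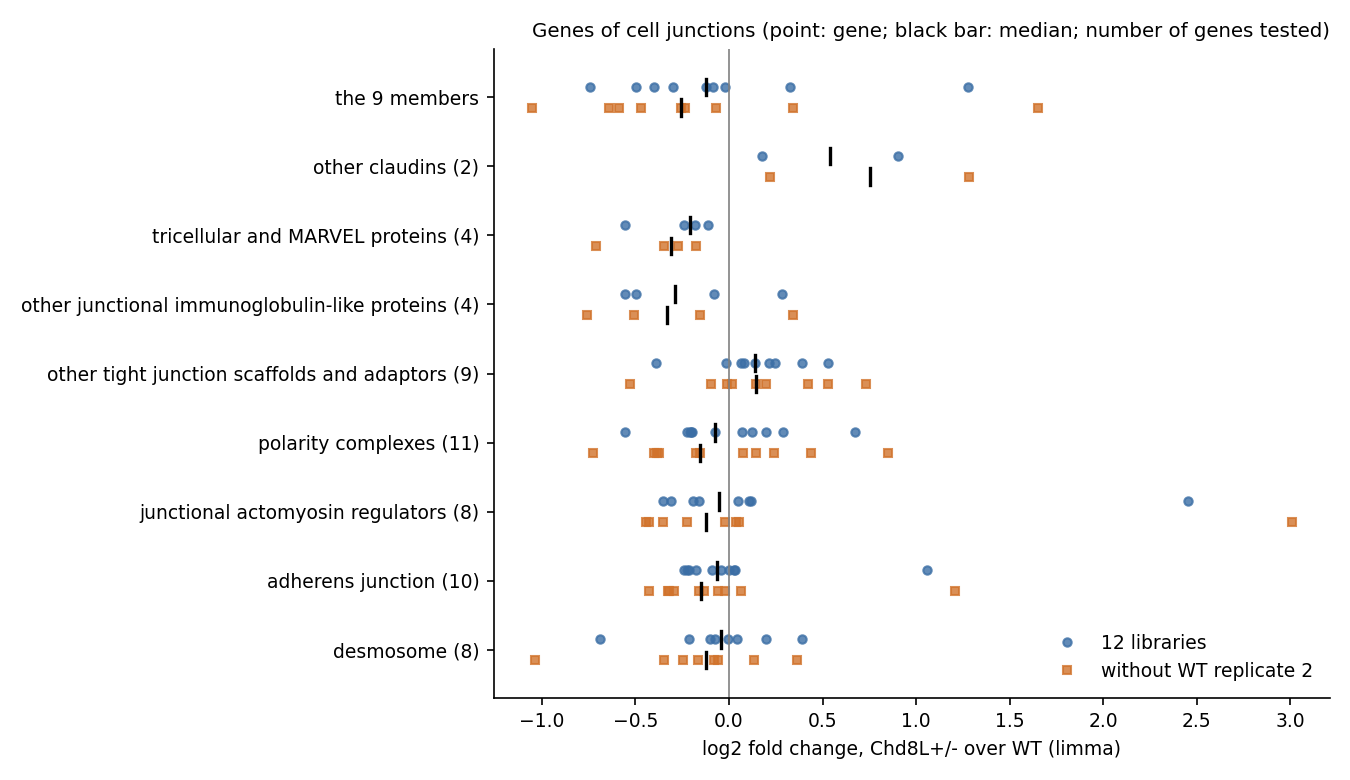
Log2 fold change, Chd8L+/- over WT, from limma for the 9 members and for the tested genes of 8 further junction lists (number of genes in brackets), with 12 libraries (blue circles) and without WT replicate 2 (orange squares) and black bars at the medians. Medians lie between -0.33 and 0.14 in both fits except for the list of other claudins, which holds 2 genes.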

How the data were processed

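Gut epithelial RNA from 12 mice was sequenced by the authors from poly(A) libraries as 75-base single-end reads, mapped to mm10 with Tophat2 and taken through DESeq2. What the authors deposited is a signal: reads per gene over a library's size factor. How reads were counted, with which annotation and whether by strand is not given in the sources used here. Of 14244 rows, 21 have date-like names and 2 repeat a name, and 0 columns belonged to other samples. Dividing by what 1 read is worth recovered whole reads for 100% of values (tolerance 0.01).

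Genotypes were compared with limma 3.58.1 (R 4.3.3) on log2(value + 1) for the 12808 genes with a mean of at least 10, with Benjamini-Hochberg adjustment over all of them and a threshold of 0.05. A fold change on this scale understates the change of low genes. Single members were compared by a two-sided exact permutation test over 792 arrangements (330 without WT replicate 2). Named genes were the 9 members, Chd8, the 2 genes most like each member, the extremes by log2 fold change of each junction list and those past a threshold; Tjp3, single markers and genes past the threshold only without WT replicate 2 were added after their values were seen. Members and lists were chosen with earlier results of these data known. Only the limma, edgeR and DESeq2 fits were tried on simulated reads, which had the same dispersion for every gene and no outlying library, unlike these data. Alternatives were edgeR 4.0.16 and DESeq2 1.42.0 on recovered reads, other pseudocounts (0.5 and 5), filters, quantile normalization, 2 blocks, a length and GC correction (natural splines with 4 degrees of freedom) and each library left out. Exon lengths and positions are from GENCODE M21 on GRCm38, where 14051 names matched on the symbol and a further 92 on a synonym. Promoter windows are from RefSeq.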

Additional observations from a re-analysis of the deposited data

Results flagged for a closer look

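In 88 groups of libraries (44 named genes in each genotype), 5 had a library at one end farther from its nearest neighbour than Dixon's 95% limit allows, and about 1 in 20, or 4.4, would be flagged by chance. Ocln was low in WT replicate 2, at 2050 normalized counts against 2414 to 2433 in the other WT libraries. Tjp1 was low in WT replicate 4, at 1198 against 1398 to 1481. Pitpnm2, the gene most like Cldn2, was high in WT replicate 2, at 124 against 45.1 to 56.9, and Stap2, the gene most like F11r, was low there, at 2255 against 3712 to 4221. Pard6g was low in Chd8L+/- replicate 5, at 6.29 against 15.996 to 27.1. In 3 of the 5 the library was WT replicate 2.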

How the results depend on the processing

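The number of genes past the threshold was 3 with 12 libraries in limma and 0 to 3534 with each library left out (3534 without WT replicate 2 and at most 8 without any other), 5 in edgeR, 811 in DESeq2, 451 with the library letter as a block, 1 with length and GC content corrected and 0 with the replicate number as a block; of the 9 members 0 passed in the main comparison, 3 without WT replicate 2, 1 each in DESeq2 (Cldn15) and under the letter block (Cldn2), and 0 under the replicate block. The labels name no pairing of mice by replicate number. Same-numbered libraries correlated at 0.19, -0.34, -0.13, -0.17 and -0.23 in their deviations, and 1 of 5 correlated best with its own number. So few correlations cannot exclude a pairing. Without WT replicate 2, combinations chosen after seeing the data gave 3365 genes and 3 members in edgeR, 4112 and 4 in DESeq2, and 3553 and 3 with length and GC content corrected. Log2 fold changes that reached the threshold were, for Cldn2, 1.55 under the letter block and, without WT replicate 2, 1.65 in limma, 1.65 in DESeq2, 1.67 in edgeR and 1.64 with the correction; for Cldn15, -0.53 in DESeq2 and then -0.64, -0.65, -0.62 and -0.53; for F11r, -0.59, -0.58, -0.55 and -0.55; and for Cldn7, -0.44 in DESeq2.

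Values near 0 changed sign. With length and GC content corrected Cldn3 was at 0.043 (exact p = 0.744), Cldn23 at 0.035 (exact p = 0.888), Slc30a4 at -0.0097 (-0.10 without WT replicate 2) and Insr at -0.13 (-0.21). Under quantile normalization Cldn3 was at 0.12 (exact p = 0.441), Ocln at 0.11 (exact p = 0.289), Epcam at 0.038, Mgat1 at 0.080 and Cdh17 at 0.060, and the exact p of Tjp1 was 0.0202. Cldn23 was at 0.0035 and Mgat1 at 0.013 and Insr at -0.060 under the letter block, Ocln at 0.0038 in edgeR, Insr at -0.0086 in DESeq2 without WT replicate 2, and Mgat1 at 0.027 and Insr at -0.0075 under the replicate block. With each library left out, Cldn2 ran from 1.03 to 1.65, Cldn15 from -0.64 to -0.41, F11r from -0.59 to -0.29, Cldn23 from -0.26 to 0.028, Ocln from -0.083 to 0.033, Mgat1 from -0.13 to 0.046, Btd from -0.28 to 0.0021, Insr from -0.044 to 0.059 and Clmp from -0.0096 to 0.47; exact p ran from 0.339 to 0.982 for Cldn23, 0.390 to 0.974 for Ocln, 0.0364 to 0.370 for Cldn7, 0.00606 to 0.182 for F11r and 0.0173 to 0.139 for Tjp1. The median of the polarity list was -0.08, ran from -0.15 to 0.029 with each library left out, and was -0.14 for genes of at least 10 in every library, 0.025 under quantile normalization, -0.0014 under the replicate block and, without WT replicate 2, -0.18 in DESeq2, -0.16 in edgeR and -0.0086 with the correction; that of the actomyosin list was then -0.33. The causes were not tested. Of 25 alternatives, 20 kept the direction and call of Cldn2 and of Cldn15, and the rest brought them past the threshold. Depth was 316 reads or more for each member value; Cldn8, Clmp, Pard6g, Myl9 and Nectin4 rest on few reads.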
